A study of Mus musculus with 4 samples.

Results

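The Fc receptor family genes described here are 7 of the 21883 features listed in each of the study's tables. The set is defined by gene name, and it was picked with earlier results of these data known: Fcgr1, Fcgr3, Fcgr4, Fcgr2b, Fcer1g, Fcgrt and Fcrls. All 7 are listed in both tables. RNA sequencing was done on young adult male wild-type mice of the BL6/C57 strain, 7 days after transection of the sciatic and femoral nerves on the left. Dorsal root ganglia (DRG), which house the sensory neuron cell bodies, were taken at lumbar levels 4 to 6, and dorsal cord tissue from lumbar segments was the second tissue. Each tissue gave 1 library from the cut side (ipsilateral) and 1 from the opposite side (contralateral), so there are 4 libraries in 4 groups. All groups come from operated mice, so the contralateral side is not tissue from an uninjured animal. The labels do not say how many animals went into a library.

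Fc receptors bind the constant part of antibodies and link antibody-coated material to the cells that carry them, which in nervous tissue are mainly microglia and macrophages. Fcgr1, Fcgr3 and Fcgr4 encode activating receptors for IgG, and these need the adaptor chain encoded by Fcer1g, whose cytoplasmic activation motif recruits kinases and starts phagocytosis. Fcgr2b encodes the inhibitory IgG receptor, which carries its own inhibitory motif and recruits phosphatases. Fcgrt encodes the neonatal Fc receptor, an MHC class I-like chain that pairs with beta-2 microglobulin and recycles IgG in endothelium and phagocytes. Fcrls encodes a receptor-like relative that is known as a marker of mouse microglia.

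In mm9 coordinates, as the authors' tables give them, Fcgr2b (chr1:172890688-172906202), Fcgr4 (chr1:172949056-172959892) and Fcgr3 (chr1:172981299-172989534) lie within 98.8 kilobases of chromosome 1. Fcer1g (chr1:173159702-173164480) follows on the same chromosome. Fcrls (chr3:87054886-87067446) and Fcgr1 (chr3:96086831-96097892) are on chromosome 3, and Fcgrt (chr7:52348362-52359192) is on chromosome 7. Each interval covers the whole gene.

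The promoter stretches below are shown because 3 members that were higher on the cut side, Fcgr1, Fcgr3 and Fcrls, share a short purine-rich string around the start of transcription. The sequences are RefSeq's, on build GRCm38.p6, which is not the build of the tables. Each is 60 bases of the gene's own strand, 5′ to 3′, and all 7 members matched an entry. 3 motifs were searched on both strands: GAGGAA, a core of the kind bound by the myeloid factor PU.1; AAAGAGGAAGGA, which contains it and is the longest string that the windows of 3 members share; and GGAA followed after 2 bases by GAAA, the composite element of PU.1 and interferon regulatory factors. They were chosen after reading the members' windows. Capitals mark the match, which reads as the reverse complement where it lies on the other strand.
Fcgr1 (chr3:96293970-96294029, minus strand, AAAGAGGAAGGA at -58 to -47): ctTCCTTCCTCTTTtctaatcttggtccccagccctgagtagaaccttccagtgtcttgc
Fcgr3 (chr1:171059395-171059454, minus strand, AAAGAGGAAGGA at -18 to -7): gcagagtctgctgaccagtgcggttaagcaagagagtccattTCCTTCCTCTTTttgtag
Fcrls (chr3:87263625-87263684, minus strand, AAAGAGGAAGGA at -147 to -136): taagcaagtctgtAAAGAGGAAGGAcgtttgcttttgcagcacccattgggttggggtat
Fcgr4 (chr1:171018866-171018925, plus strand, GAGGAA at -22 to -17): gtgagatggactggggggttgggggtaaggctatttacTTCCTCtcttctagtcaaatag
Fcgr2b (chr1:170976072-170976131, minus strand, composite element at -35 to -26): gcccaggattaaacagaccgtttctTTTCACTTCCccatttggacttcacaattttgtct

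Positions count back from the start site, and Fcgr3 is counted from the downstream one of its 2 listed starts. In windows from 250 bases before to 50 after a start, GAGGAA was present for 4 of the 7 members and in 28.3% of all 32851 windows. AAAGAGGAAGGA, present for 3 of the 7 members by the way it was found, was in 25 of all windows. The composite element was present for 1 of the 7 members, Fcgr2b, and in 2.72% of all windows. The windows of Fcer1g and Fcgrt held none of the 3. Fcgr4, which holds GAGGAA, was not higher on the cut side in DRG. A match is a description of the letters, not of a bound site. The gene for PU.1, listed under its older symbol Sfpi1, stood at 3.15 FPKM ipsilaterally and 0.811 contralaterally in DRG, and at 5.18 and 1.22 FPKM in dorsal cord. A part of PU.1 in the members' side differences was not tested.

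Levels are given in FPKM, which scales fragments to transcript length and to the mapped fragments of the library, so genes can be set side by side within a library. The side difference is the log2 of (ipsilateral + 1) over (contralateral + 1), and the added 1 FPKM makes differences between low levels look smaller. A gene was taken as measured if either side of the tissue reached 1 FPKM. It was called 2-fold higher if its log2 ratio reached 1, and 2-fold lower if it reached -1. With 1 library a group there is no spread between replicates and no test of the conditions. Where an interval is given, it is the 95% interval of the plain FPKM ratio from the standard error in the authors' deposited table, and it leaves out variation between animals.

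Libraries matched their tissue labels. Summed FPKM of 7 DRG genes such as Prph and Avil was 1664 and 2144 in the DRG libraries and 17.4 and 9.97 in the cord libraries (ipsilateral first). Summed FPKM of 8 cord genes such as Gfap and Slc1a2 was 2213 and 1894 in cord, and 7.67 and 18.6 in DRG. The contralateral DRG library thus held more of the cord genes and the ipsilateral cord library more of the DRG genes, and the part of this in the results was not tested. The median log2 ratio of all measured features was 0.05 in DRG and 0.02 in cord. The summed FPKM of a library ranged from 425636 to 442298.

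Of the 7 members, 5 were at least 2-fold higher on the cut side in DRG and 0 were 2-fold lower, against 3.04% of the 13137 measured features that were higher and 0.784% that were lower. In dorsal cord 6 members were measured, of which 5 were at least 2-fold higher and 0 lower, against 4.46% and 1.64% of 13351 features. The same 5 genes made up both counts: Fcgr1, Fcgr3, Fcgr2b, Fcer1g and Fcrls. With 3 FPKM added in place of 1, the DRG count became 3, since Fcgr1 (log2 ratio 0.60) and Fcer1g (0.90) were then under 2-fold, and the cord count stayed at 5. Over all features measured in both tissues, 0.45% were higher in both. The median log2 ratio of the measured members was 1.04 in DRG and 1.90 in cord. In bulk tissue, more cells of a type and more RNA per cell cannot be told apart.

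**Figure D1:**
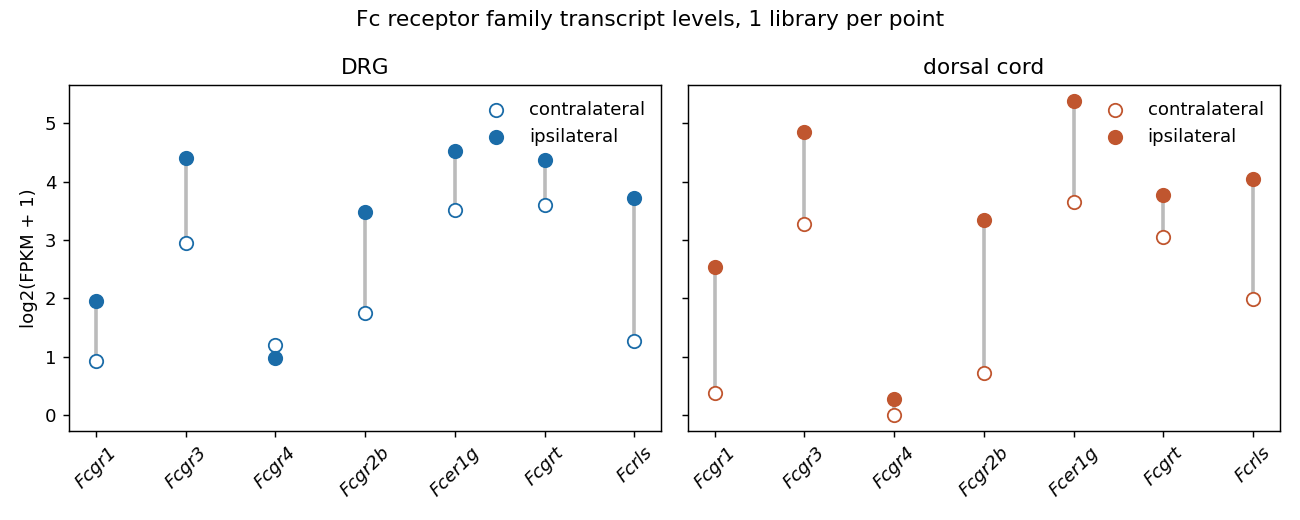
Level of each member as log2(FPKM + 1) in DRG (left) and dorsal cord (right). Each point is 1 library, open for contralateral and filled for ipsilateral, and the grey line joins the sides. Filled points stand above open ones for every member except Fcgr4 in DRG.

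Fcgr3, the low-affinity activating receptor gene, had the highest level of the 4 Fcgr genes in each of the 4 libraries. In DRG it stood at 20.2 FPKM on the cut side and 6.77 on the other (log2 ratio 1.45). In cord it stood at 27.8 and 8.72 FPKM (1.57). The plain fold was thus close in both tissues, 2.98 in DRG and 3.19 in cord, and the errors in the authors' deposited table allow 1.85 to 4.80 and 1.93 to 5.28.

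Fcgr1 encodes the high-affinity IgG receptor and was low on the contralateral side of both tissues. It reached 2.90 FPKM ipsilaterally and 0.896 contralaterally in DRG (log2 ratio 1.04), and at 4.84 and 0.306 FPKM in cord (2.16). The plain fold was 3.24 in DRG and 15.8 in cord. By the authors' deposited tables these have intervals of 1.68 to 6.24 and 5.94 to 42.0. The width of the cord interval goes with a contralateral level under 1 FPKM.

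Fcgr4, the activating receptor gene best known from monocytes and neutrophils, did not follow the others. In DRG it was at 0.979 FPKM on the cut side and 1.31 on the other (log2 ratio -0.23), and by the authors' deposited table the fold has an interval that includes 1 (0.314 to 1.77). In cord it was under the 1 FPKM limit, at 0.209 FPKM ipsilaterally and listed at 0 contralaterally, so no fold is given. Of 9 neutrophil genes, 5 were measured in DRG, with 0 at least 2-fold higher or lower. The shares over all measured features were 3.04% higher and 0.784% lower. Their summed FPKM over 9 genes was 274 ipsilaterally and 290 contralaterally in DRG, with S100a8 at 70.4 and 76.9 and S100a9 at 116 and 110. In cord the sums were 3.46 and 0.721. Only Csf3r was measured there, and it was past 2-fold higher at 2.59 and 0.256 FPKM. In cord 5 of the 9 genes were listed at 0 on both sides. The part of neutrophils in the Fcgr4 level was not tested.

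Fcgr2b, the gene of the inhibitory receptor, had a larger ratio than Fcgr3 in both tissues. It was at 10.2 FPKM ipsilaterally and 2.35 contralaterally in DRG (log2 ratio 1.74), and at 9.18 and 0.641 FPKM in cord (2.63). Plain folds were 4.33 in DRG and 14.3 in cord. The standard errors in the authors' deposited tables give 2.39 to 7.87 and 5.42 to 37.9 for them. The ipsilateral levels were thus alike in both tissues, and the larger cord fold came with the lower contralateral level. Levels set across tissues are approximate, because the tables were scaled separately. B cells, which also carry this receptor, were little represented: 0 of 8 B cell genes reached 1 FPKM in any library, and the highest value was 0.539 FPKM.

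The protein-coding transcripts of Fcgr2b and Fcgr3 are alike in part. In the GENCODE M21 annotation, 166 windows of 50 bases occur in both, which is 10.2% of the windows of Fcgr3 and 4.48% of those of Fcgr2b, while no other pair of members shares a window. No source used here says how the authors' counting divided such reads, so the split between these genes is uncertain.

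Fcer1g, the adaptor chain gene, had the highest level of the family in 3 libraries, and in contralateral DRG only Fcgrt was above it. It was at 22.1 FPKM ipsilaterally and 10.4 contralaterally in DRG (log2 ratio 1.02), and at 40.9 and 11.5 FPKM in cord (1.74). Its plain folds of 2.12 and 3.55 carry intervals of 1.23 to 3.67 and 1.94 to 6.50 by the authors' deposited tables. The authors' deposited table does not call the DRG difference (q = 0.0867) and calls the cord difference (q = 0.00258). In DRG the gene was under 2-fold once the libraries were rescaled to the same median or upper quartile.

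Mast cells also carry Fcer1g, as part of their IgE receptor. In DRG, 5 of 6 mast cell genes were measured and all 5 were above 0, with a summed FPKM of 27.3 ipsilaterally and 11.0 contralaterally. The chymase gene Cma1 was at 8.05 and 2.27 FPKM and the protease gene Mcpt4 at 11.7 and 4.75. Of the other IgE receptor chains, Fcer1a was at 0.178 FPKM and listed at 0, and Ms4a2 at 0.484 and 0.189 FPKM. The part of mast cells in the DRG value of Fcer1g was not tested. In cord, 5 of the 6 mast cell genes were listed at 0 on both sides, as were Fcer1a and Ms4a2.

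Fcrls had the largest ratio of the family in DRG, at 12.1 FPKM ipsilaterally and 1.41 contralaterally (log2 ratio 2.45), rank 51 of 13137 measured features. In cord it was at 15.5 and 2.95 FPKM (2.07), rank 80 of 13351. Plain folds were 8.62 (4.75 to 15.6) and 5.26 (2.95 to 9.41), with the intervals again from the authors' deposited tables. A gene known as a microglial marker was thus present in both ipsilateral ganglion and cord at similar level. Other microglial genes were mixed in DRG. Siglech was at 0.267 and 0.313 FPKM in DRG and at 15.8 and 5.11 in cord. Sall1 was at 0.0579 and 0.121 FPKM in DRG and at 10.5 and 8.79 in cord. Of 10 such genes, 7 were measured in DRG, with 3 at least 2-fold higher and 0 lower. Over all measured features the share higher was 3.04%. The 3 were Trem2 at 2.81 and 0.0863 FPKM, Gpr34 at 2.13 and 0.225, and Tmem119 at 1.87 and 0.407. In cord these stood at 14.3 and 6.24, 16.4 and 5.63, and 13.3 and 4.44 FPKM.

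Fcgrt had the smallest ratio of the measured members in cord and the smallest positive ratio in DRG. It was at 19.6 FPKM ipsilaterally and 11.1 contralaterally in DRG (log2 ratio 0.76), and at 12.7 and 7.32 FPKM in cord (0.72). Plain folds were 1.76 (1.16 to 2.67) and 1.73 (1.03 to 2.92) by the authors' deposited tables, which call neither (q = 0.0921 and q = 0.212). The gene of its partner chain, B2m, was at 262 and 268 FPKM in DRG (-0.04) and at 133 and 65.2 FPKM in cord (1.02). Both genes were higher on the cut side in cord, past 2-fold for B2m only, while in DRG B2m was level between the sides. Endothelial genes, from cells where this receptor also works, had a median log2 ratio of 0.12 in DRG and 0.46 in cord over 11 genes, with 0 past 2-fold in either tissue.

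In the authors' deposited table for DRG, 4 members are called significantly higher (Fcgr1, Fcgr3, Fcgr2b and Fcrls), against 4.64% of 13975 tested features. In the authors' deposited table for cord, 5 are called higher, these and Fcer1g, against 4.52% of 14279. Those calls compare 1 library with 1 library and describe the libraries.

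**Figure D2:**
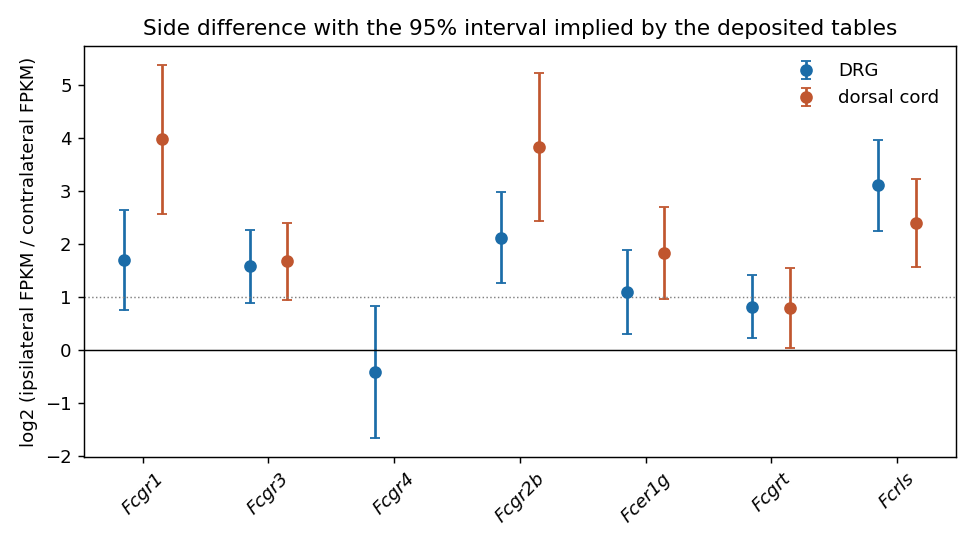
Plain log2 ratio of ipsilateral to contralateral FPKM for each member, with DRG in blue and dorsal cord in orange. Bars are 95% intervals from the standard error in the authors' deposited tables. The dotted line marks 2-fold. Fcgr4 in cord has no point because the contralateral library is listed at 0. In DRG the bar of Fcgr4 crosses 0.

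Members differed among themselves by more than this error in some pairs. Of 21 pairs in DRG, the difference of the plain log2 ratios had an interval without 0 in 10, and of 15 pairs in cord in 7. These intervals were not adjusted for the number of pairs. Fcrls exceeded Fcgr3 in DRG by 1.53 on the log2 scale (0.43 to 2.63). In cord, Fcgr1 exceeded Fcgr3 by 2.31 (0.72 to 3.89). The difference of Fcgr3 minus Fcgr2b was -2.17 in cord (-3.75 to -0.59) and -0.54 in DRG (-1.64 to 0.56). The intervals here too rest on the standard errors in the authors' deposited tables, and those of Fcgr2b and Fcgr3 may not be independent.

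Between tissues, the plain log2 ratio of Fcgr1 was larger in cord than in DRG by 2.28 (interval 0.59 to 3.98) and that of Fcgr2b by 1.72 (0.08 to 3.37), from the errors in the authors' deposited tables. For Fcgr3 the difference was 0.10 (-0.90 to 1.10), for Fcer1g 0.74 (-0.43 to 1.92), for Fcgrt -0.02 (-0.99 to 0.94) and for Fcrls -0.71 (-1.91 to 0.49). The side difference was thus larger in cord beyond this error for 2 of the 6 genes compared, both of them under 1 FPKM in contralateral cord, with no adjustment for the number compared.

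The make-up of the IgG receptor transcripts differed between the libraries. Summed over Fcgr1, Fcgr3, Fcgr4 and Fcgr2b, the level was 34.3 FPKM ipsilaterally and 11.3 contralaterally in DRG, and 42.1 and 9.67 in cord. In contralateral cord Fcgr3 made up 90.2% of the sum, Fcgr2b 6.63% and Fcgr1 3.17%. In ipsilateral cord Fcgr3 made up 66.2%, Fcgr2b 21.8% and Fcgr1 11.5%. The inhibitory and the high-affinity receptor genes thus took larger shares on the cut side of the cord. In DRG the share of Fcgr3 was 59.0% ipsilaterally and 59.8% contralaterally. Fcgr2b held 29.7% ipsilaterally and 20.7% contralaterally, and Fcgr4 held 2.86% ipsilaterally and 11.6% contralaterally.

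The activating genes (Fcgr1, Fcgr3 and Fcgr4 summed) stood at 3.58 times the Fcgr2b level in ipsilateral cord and at 14.1 times in contralateral cord. In DRG the same ratio was 2.37 ipsilaterally and 3.82 contralaterally. The ratio of activating to inhibitory transcripts was therefore lower on the cut side in both tissues, and it depends on the uncertain split between Fcgr2b and Fcgr3. No interval was computed for this ratio. For Fcgr3 minus Fcgr2b alone, the DRG interval included 0 (-1.64 to 0.56). The ratio in contralateral cord rests on an Fcgr2b level of 0.641 FPKM. The adaptor level was close to that of its receptors: Fcer1g stood at 1.24 times the activating sum in ipsilateral and 1.28 times in contralateral cord, and at 0.918 and 1.16 times in DRG.

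**Figure D3:**
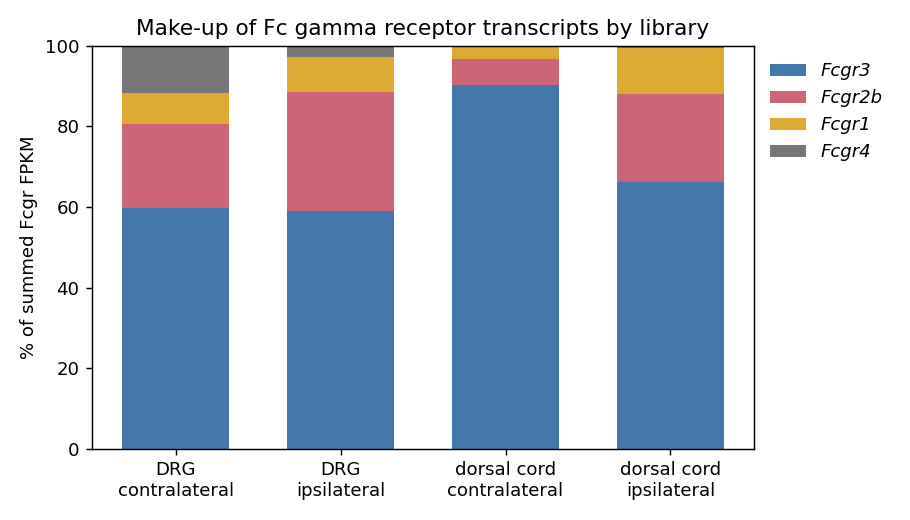
Share of each gene in the summed FPKM of Fcgr3, Fcgr2b, Fcgr1 and Fcgr4, as stacked bars for the 4 libraries. Each bar is 1 library. Fcgr3 fills 90.2% of the bar of contralateral cord and 66.2% of that of ipsilateral cord.

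Myeloid marker genes moved with the family. Among the 15 general markers of myeloid cells, 8 passed 2-fold upwards and 0 downwards in DRG (median log2 ratio 1.10). In cord 14 passed upwards and 0 downwards (median 1.81). Their summed FPKM was 318 ipsilaterally and 150.2 contralaterally in DRG, and 669 and 146 in cord. Against these medians, Fcer1g lay 0.08 below in DRG and 0.06 below in cord, and Fcgr1 0.06 below in DRG and 0.35 above in cord. Fcgr2b lay above in both, by 0.64 and 0.83, and Fcrls by 1.35 and 0.26. Fcgr3 was 0.35 above in DRG and 0.24 below in cord, and Fcgrt below in both, by 0.33 and 1.09. All these distances except those of Fcrls in DRG and of Fcgr4, 1.32 below in DRG, left the member within the range of the pan-myeloid genes, 0.19 to 1.92 in DRG and 0.58 to 3.28 in cord. The part of myeloid cell number in the members' values was not tested.

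Marker genes of phagocyte types differed by tissue. Of 10 genes of blood-derived and border macrophages, 7 were at least 2-fold higher and 0 lower in DRG, with a summed FPKM of 86.8 ipsilaterally and 33.4 contralaterally, with the mannose receptor gene Mrc1 at 14.7 and 3.51 FPKM. In cord only 2 of the 10 were measured, 0 of them past 2-fold, and Mrc1 was at 0.428 and 0.175 FPKM. Of 10 microglial genes, 8 were at least 2-fold higher in cord, with a summed FPKM of 326 and 119, and 3 of 7 measured in DRG, with sums of 105 and 77.5. Lymphocytes of the T and NK kind were little represented, with 2 of 12 genes measured in DRG and 1 in cord, and 0 past 2-fold.

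More genes acting downstream of the activating receptors passed 2-fold in cord than in DRG, a difference between tissues that was not tested. Of 22 genes of the activating pathway, 19 were measured in DRG with 0 at least 2-fold higher or lower, and 17 in cord with 5 higher and 0 lower. The medians were 0.22 and 0.27, against 0.05 and 0.02 for all measured features. Of all measured features, 3.04% were at least 2-fold higher in DRG and 4.46% in cord, and 0 of 19 is near the DRG share. In cord, the phospholipase gene Plcg2 was at 4.97 FPKM on the cut side and 0.694 on the other (log2 ratio 1.82). Lyn, a kinase that phosphorylates the adaptor motif, was at 6.56 and 1.63 FPKM (1.52), and the exchange factor gene Vav1 at 5.25 and 1.23 (1.49). In DRG, Lyn was at 3.30 and 2.75 FPKM (0.20) and Plcg2 at 1.68 and 1.71 (-0.02). The kinase gene listed as Sykb, whose product binds the phosphorylated adaptor, was at 2.84 and 1.42 FPKM in DRG (0.67) and 1.69 and 1.24 in cord (0.27), where the authors' deposited table marks its test as failed. The count of 0 in DRG depends on the added 1 FPKM. Pik3cg, a lipid kinase gene, was at 1.36 and 0.427 FPKM there (0.73), and the authors' deposited table calls it higher, with a plain fold of 3.18 (1.72 to 5.87). The authors' deposited table also calls Sykb higher in DRG, at just over 2-fold (1.27 to 3.14). Over the activating, inhibitory and phagocyte genes together, 1 was at least 2-fold higher in DRG and 13 in cord. The genes measured in these lists numbered 19, 8 and 14 in DRG, and 17, 8 and 12 in cord. With 0.1 FPKM added these counts were 5 and 15, and the authors' deposited tables call 5 and 11 higher.

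In the inhibitory arm, 2 of 8 measured genes were at least 2-fold higher in cord and 0 of 8 in DRG, with 0 past 2-fold lower in either. The shares higher over all measured features were 4.46% and 3.04%, so the DRG count is near its share. The adaptor gene Dok3, which acts in inhibitory signalling, lay just short of that limit in cord in the other direction, at 0.244 FPKM on the cut side and 1.48 on the other (log2 ratio -0.996). Its plain fold was 0.165, and the authors' deposited table allows 0.0430 to 0.634 but does not call it (q = 0.0906). Inpp5d, which encodes the lipid phosphatase SHIP1 that Fcgr2b recruits, was at 4.30 and 0.713 FPKM in cord (1.63) and 2.28 and 0.922 in DRG (0.77). Ptpn6, which encodes the phosphatase SHP-1, was at 11.2 and 3.48 FPKM in cord (1.44) and 5.06 and 3.40 in DRG (0.46). The more broadly expressed Ptpn11 and Csk were at log2 ratios of 0.37 and 0.36 in cord and -0.10 and -0.02 in DRG, and the authors' deposited table marks the cord test of Ptpn11 as failed.

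Among genes of phagocytosis and the oxidative burst, 6 of 12 measured were at least 2-fold higher in cord and 1 of 14 in DRG, with 0 lower. Across all measured features, 4.46% were higher in cord and 3.04% in DRG, and 14 genes are too few to set 1 against that DRG share. In cord the oxidase subunit genes Cyba at 7.98 and 1.90 FPKM (1.63), Ncf4 at 2.05 and 0.0324 (1.57) and Ncf1 at 7.01 and 2.45 (1.22) were among the 6. Cybb, the catalytic subunit of the same oxidase, was at 0.240 and 0.214 FPKM in cord and at 8.26 and 4.81 in DRG (0.67). The phospholipase-like gene Pld4 was past 2-fold in both tissues, at 3.93 and 1.16 FPKM in DRG (1.19) and 7.15 and 1.23 in cord (1.87).

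**Figure D4:**
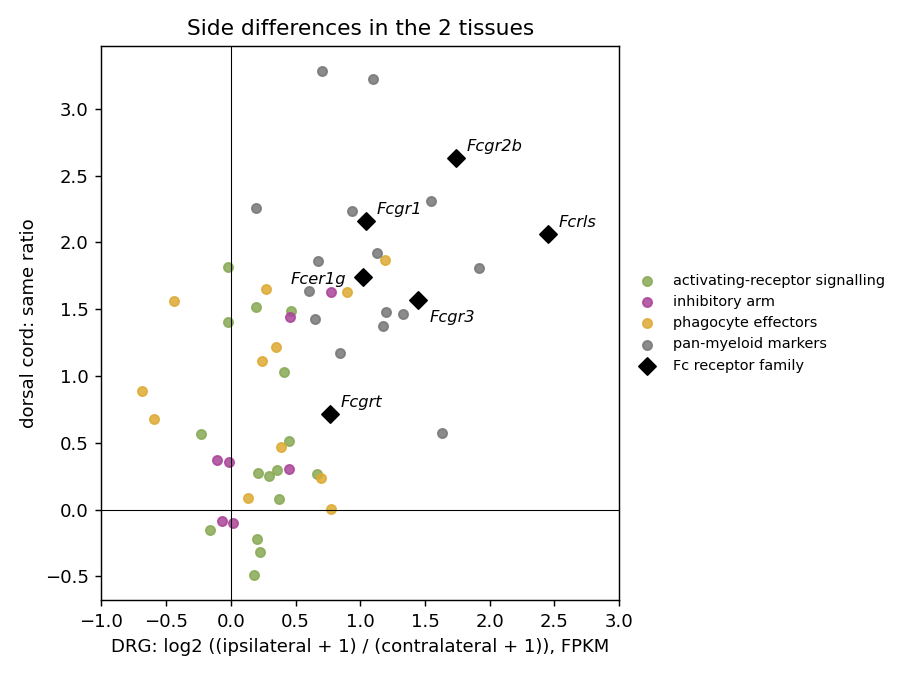
Log2 ratio in DRG (horizontal) against dorsal cord (vertical) for genes measured in both tissues. Black diamonds are the 6 family members measured in both, and circles are genes of the signalling, phagocyte and pan-myeloid lists. The diamonds lie among or beyond the grey pan-myeloid circles, apart from Fcgrt at 0.76 and 0.72.

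Other Fc receptor and receptor-like genes were scarcely detected. Of 12 such genes, including Fcer2a, Fcamr, Pigr and the Fcrl genes, only Trim21, which encodes a cytosolic antibody receptor, reached 1 FPKM. It was at 3.81 and 5.43 FPKM in DRG (-0.42) and 1.42 and 0.963 in cord (0.30).

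Most neighbouring genes, like most features of both tissues, were not past 2-fold. The 274 kilobases of chromosome 1 from Fcgr2b to Fcer1g hold 11 listed features, of which 7 are outside the family. Of these 7, 5 were measured in each tissue, with 0 past 2-fold in DRG and 1 higher in cord, the unnamed transcript 1700009P17Rik at 2.90 and 0.928 FPKM. Over all measured features, 3.04% were at least 2-fold higher in DRG and 4.46% in cord, and 5 genes are too few to set against these shares.

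The genes with the most similar pair of log2 ratios were found by straight-line distance in the DRG and cord ratios, over 12229 features measured in both tissues and 4 libraries. Nearest to Fcgr1 were Itgam (0.94 in DRG, 2.23 in cord) and Tyrobp (1.13, 1.92). Nearest to Fcgr3 were Bcl2a1b (1.35, 1.61) and Cx3cr1 (1.33, 1.46). The complement genes C1qa (1.56, 2.43) and C1qc (1.56, 2.33) were nearest to Fcgr2b, and Cd86 (0.94, 1.76) and Tbxas1 (0.95, 1.67) to Fcer1g. Nearest to Fcrls were Anxa10 (2.69, 1.90) and Tnnc1 (2.40, 2.52), at distances of 0.30 and 0.45. Pdcl3 (0.79, 0.70) and Pthlh (0.80, 0.70) were nearest to Fcgrt. Such a likeness rests on 2 ratios, and a ratio near the bulk of all genes has many near neighbours.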

How the data were processed

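Total RNA (RNeasy Mini Kit, QIAGEN) was made into libraries with the ScriptSeq mRNA-Seq kit of Epicentre, per the labels' protocols. The submitters' processing notes name TopHat 1.4.0, Cuffdiff 1.3.0 and build mm9. No source used here states the annotation, strand setting or filters. There is 1 table for each tissue, in which the authors deposited FPKM for each library with p-values and q-values of their own test, a log2 fold change and a test statistic, per the file headers. Absolute depth is unknown. The standard error of a log2 ratio was taken as the deposited log2 fold change over the test statistic; its median was 0.44 in DRG and 0.57 in cord at mean levels of 1 to 3 FPKM.

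The log2 ratios, counts, shares and motif searches were computed with Python 3.11.15 and pandas 2.3.3, and the ratio and 2-fold rule were tested on simulated data. The members and the 15 gene lists (156 entries, of which 155 matched, 2 by an older symbol; 1 further marker is not reported here) were chosen with earlier results of these data known. Named genes are the members, B2m, the 2 nearest genes of each member, and genes from the lists. In each list the rule picked the measured genes (at most 4 in a tissue) furthest from a ratio of 0. Not all genes picked by this rule are named, and others were named after their values were seen. Columns of samples outside the series numbered 0.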

Additional observations from a re-analysis of the deposited data

Results flagged for a closer look

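Among the listed genes measured in both tissues, 2 outside the DRG and cord genes had log2 ratios of at least 0.5 in size and opposite sign. Coro1a, an actin-binding protein gene of leukocytes, was at -0.59 in DRG and 0.68 in cord. Lcp1, the leukocyte plastin gene, was at -0.68 in DRG and 0.89 in cord. Calca, from the list of DRG genes, also met this rule, at -0.68 in DRG and 1.32 in cord. The difference between tissues was not tested, each value rests on 1 library a side, and the authors' deposited tables call none of these values.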

How the results depend on the processing

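No paired analysis was possible because each group has 1 library. The 5 members at least 2-fold higher in DRG became 3 at a pseudocount of 3 FPKM. The 1 signalling or phagocyte gene higher in DRG became 5 at a pseudocount of 0.1 FPKM, 5 by the authors' significance calls, and 0 at a pseudocount of 3 FPKM or a filter at 5 FPKM. The 13 such genes higher in cord became 6 at a pseudocount of 3 FPKM and 7 at a filter at 5 FPKM, and the 8 pan-myeloid genes higher in DRG became 4 at a pseudocount of 3 FPKM. The other 42 values of counts and ratios stayed within 1.5 times, among them the 5 members higher in cord (4 at a filter at 5 FPKM, otherwise 5). Some of the 42 could not change. A gene at least 2-fold higher with 1 FPKM added always reaches 1 FPKM, so dropping the filter leaves the counts alike. Upper-quartile rescaling cancels in the ratio of Fcer1g to the activating genes within a library. Of 52 recomputed log2 ratios of members, 51 moved by no more than the distance from the centre to the end of the gene's interval in the authors' deposited table, and Fcgr1 in cord moved further, from 2.16 to 3.60 at a pseudocount of 0.1 FPKM. That interval is of the plain ratio, and ratios with FPKM added can lie below it. Fcgr4 in cord, and Fcgr1 and Fcgr2b in contralateral cord, were under 1 FPKM; the depth behind these values is unknown.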

Other observations

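Tyrobp, which encodes the adaptor DAP12 and carries the same kind of activation motif as Fcer1g, stood at 1.67 times the Fcer1g level in ipsilateral and 1.58 times in contralateral DRG. In cord it stood at 0.929 and 0.807 times. The order of the 2 adaptor genes was thus opposite in ganglion and cord on both sides, with 1 library each. No interval was computed for these ratios, and in ipsilateral cord the levels were close (Tyrobp 38.0 and Fcer1g 40.9 FPKM).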
